A study of Mus musculus with 12 samples.

Results

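Striatal neurons release peptides as well as classical transmitters, and each peptide is cut from a precursor protein encoded by its own gene. The transcripts of 9 such precursors, Pdyn, Penk, Tac1, Cartpt, Sst, Npy, Cck, Nts and Tac2, were followed in mouse striatum. They were taken by name: every probe set annotated to exactly 1 of these genes, which gave 1 probe set for each gene, 9 of 20393 probe sets that carry a single gene symbol. Of the 9, 7 were bright enough to be tested, among 11102 tested probe sets in all, while Cck and Tac2 were too dim.

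RNA came from the striatum, nucleus accumbens included, of female littermates aged 10 to 15 weeks, killed 1 hour after they were injected intraperitoneally with saline or with cocaine at 25 mg/kg, which blocks the reuptake of dopamine. The 4 groups were control saline, control cocaine, mutant saline and mutant cocaine, with 3 arrays each, and the mutants are those of the transcription factor SRF named in the series title. Neither the mutated part of Srf, nor the cells that carry the mutation, nor the strain is named in the sources used here. The protocol text gives cocaine for all samples and the description field gives other groups than the titles, so genotype and treatment follow the titles, and the replicates are separate samples that the titles call biological.

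Medium spiny neurons, the main cells of the striatum, send their axons along a direct or an indirect pathway. Direct-pathway neurons carry the dopamine D1 receptor and make dynorphin (from Pdyn) and substance P (from Tac1). Indirect-pathway neurons carry the D2 receptor and make enkephalin (from Penk). A sparse class of interneurons makes somatostatin (Sst) together with neuropeptide Y (Npy). The CART peptide (Cartpt) is best known in the nucleus accumbens as a transcript responsive to psychostimulants. Stimulation of the D1 receptor is known to raise Pdyn and Tac1, and the factor CREB, which binds the cAMP response element (CRE), acts on several precursor genes.

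Values are the authors' log2 signals, so a difference of 1 is a 2-fold change. A probe set was tested if it exceeded a log2 signal of 4 in at least 3 of the 12 arrays, and called at an adjusted p under 0.05 in limma. Intervals are 95% intervals of the log2 change. Srf itself checked the genotype labels: its tested probe set was 3.54-fold lower in mutants (log2 change −1.83), and the SD within groups was at most 0.152. Arrays of a group correlated at 0.986 to 0.993 and arrays of different groups at 0.976 to 0.990.

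Promoter sequences of 4 precursors, from direct-pathway neurons, the somatostatin interneurons and the CART gene, are shown first, because CRE and AP-1 sites are the elements through which precursor genes are classically coupled to neuronal activity. RefSeq promoter entries (GRCm38.p6) were found for 8 of the 9 precursors, all but Penk, and the 250 bases before the annotated start were searched. The lines give, 5′ to 3′ on the gene's strand, Pdyn (the first of 2 annotated starts, chr2:129699939-129700188, minus strand), Tac1 (chr6:7554811-7555060, plus strand), Cartpt (chr13:99900684-99900933, minus strand) and Sst (chr16:23890845-23891094, minus strand), with motif matches in capitals.
Pdyn: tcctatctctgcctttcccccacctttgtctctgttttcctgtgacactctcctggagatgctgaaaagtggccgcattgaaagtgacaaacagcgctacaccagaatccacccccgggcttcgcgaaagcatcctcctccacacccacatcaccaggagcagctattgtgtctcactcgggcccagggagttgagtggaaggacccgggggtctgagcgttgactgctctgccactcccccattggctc
Tac1: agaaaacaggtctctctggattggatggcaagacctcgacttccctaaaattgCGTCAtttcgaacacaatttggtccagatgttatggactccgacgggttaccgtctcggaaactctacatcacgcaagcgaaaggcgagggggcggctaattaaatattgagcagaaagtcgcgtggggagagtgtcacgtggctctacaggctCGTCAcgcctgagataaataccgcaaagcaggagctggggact
Cartpt: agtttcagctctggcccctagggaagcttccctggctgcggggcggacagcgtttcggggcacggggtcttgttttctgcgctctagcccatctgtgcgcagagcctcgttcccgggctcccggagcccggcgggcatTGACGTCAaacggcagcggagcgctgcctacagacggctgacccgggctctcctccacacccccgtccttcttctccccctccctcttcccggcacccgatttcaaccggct
Sst: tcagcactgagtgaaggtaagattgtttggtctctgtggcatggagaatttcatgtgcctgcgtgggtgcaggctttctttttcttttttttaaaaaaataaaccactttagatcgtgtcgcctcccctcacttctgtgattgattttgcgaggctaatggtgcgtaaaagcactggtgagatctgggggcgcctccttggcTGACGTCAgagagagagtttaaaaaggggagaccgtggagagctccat
The motifs searched on both strands were the CRE half-site TGACG, the full CRE TGACGTCA (which itself holds overlapping half-sites), the AP-1 site TGANTCA, the EGR site GCGNGGGCG and the CArG box to which SRF binds.

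The full CRE stood in 2 of the 8 precursors, 105 to 112 bases before the start in Cartpt and 41 to 48 bases before it in Sst. It occurs in 1.55% of the 32851 promoter windows of this length in the table. The half-site, present in 17.8% of all windows, was found in 5 precursors: in Cartpt and Sst within the full CRE, in Tac1 at 193 to 197 and 39 to 43 bases before the start, in Cck at 43 to 47 bases, and in Nts at 162 to 166 bases. Nts also held an AP-1 site 201 to 207 bases before its start (6.75% of all windows). Neither annotated start of Pdyn, nor Npy, nor Tac2 had any of these letters in its window. The CArG box (1.47% of all windows) and the EGR site (4.7%) were found in 0 of the 8. These matches describe letters in a short window and say nothing on binding.

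**Figure D1:**
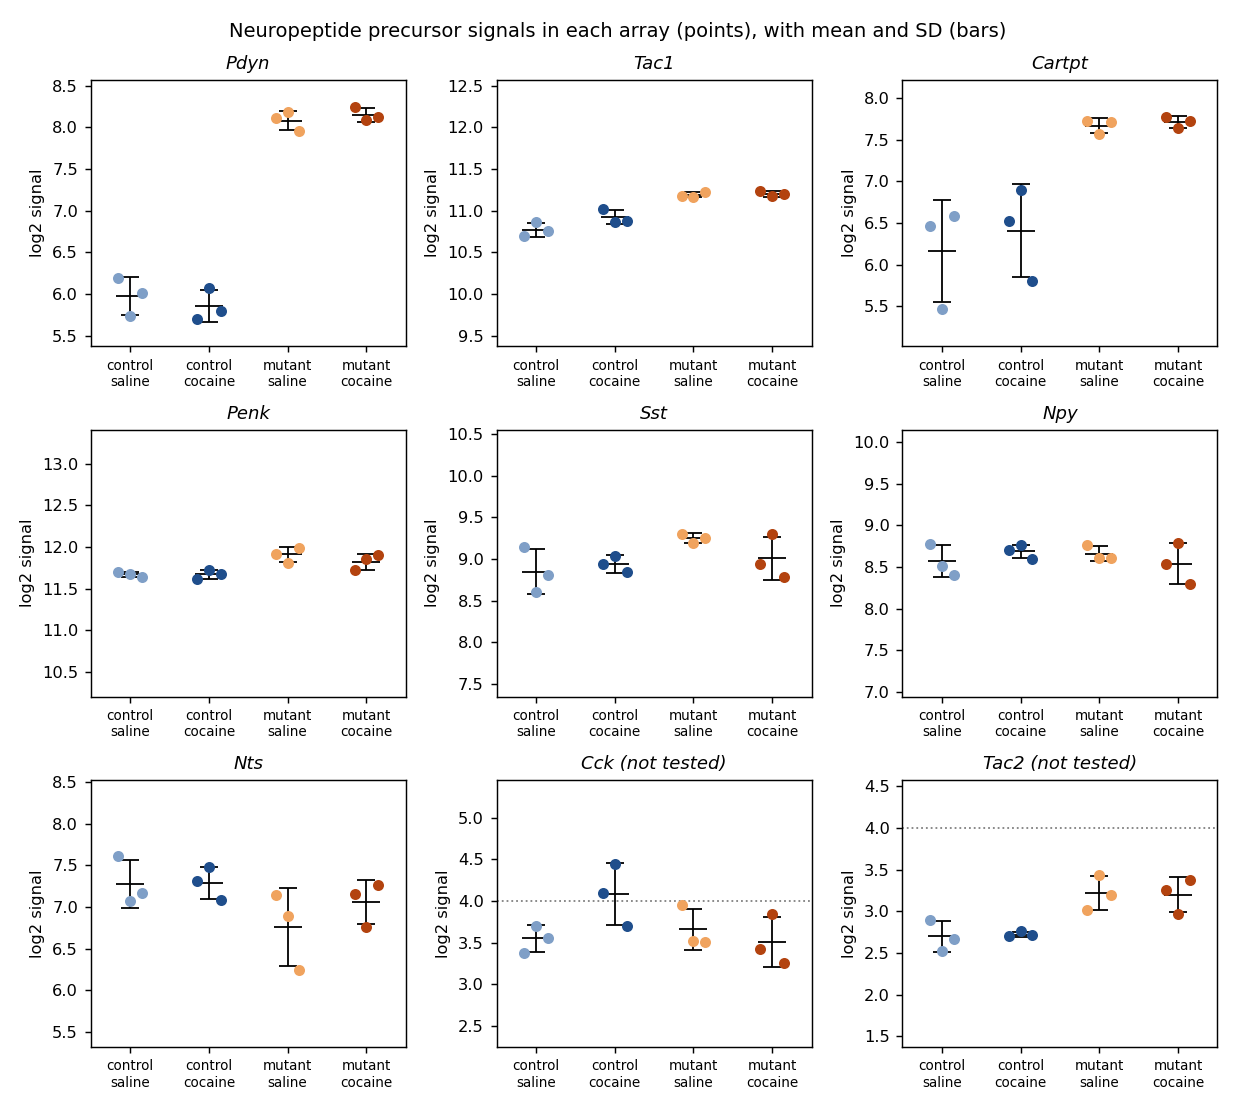
Log2 signal of the 9 neuropeptide precursors on each of the 12 arrays (vertical axis), 1 panel per gene, with the 4 groups along the horizontal axis, points for arrays and bars for the group mean and SD (n = 3); the dotted line marks the floor of 4. Pdyn, Tac1, Penk and Cartpt have all 6 mutant arrays above all 6 control arrays, Sst, Npy and Nts overlap between the genotypes, and Cck and Tac2, the latter again with mutant arrays above control arrays, lie near or under the floor.

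Precursor transcripts differed between the genotypes and gave no called response to cocaine. Averaged over both treatments, 4 of the 7 tested precursors, Pdyn, Cartpt, Tac1 and Penk, were higher in mutants and 0 lower. Of all tested probe sets 9.47% were called in that comparison and 4.41% were called higher. The precursors and the gene lists below were chosen with earlier results of these data known, so such shares are a description. In the same 4 precursors all 6 mutant arrays lay above all 6 control arrays, a separation that 2.05% of tested probe sets showed in that direction. The median change of the 7 was 0.231, against −0.00878 for all tested probe sets. In bulk tissue, a change in the number of cells of a type and a change in the RNA per cell cannot be told apart.

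Pdyn, the dynorphin precursor, had the widest separation of the 9. Its signal was 6.19, 5.74 and 6.01 in saline-treated controls and 5.70, 6.07 and 5.80 in cocaine-treated controls. Saline-treated mutants gave 8.11, 8.18 and 7.96, and cocaine-treated mutants 8.24, 8.09 and 8.12. The lowest mutant array lay well above the highest control array, and within each genotype the saline and cocaine arrays overlapped.

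Group means of Pdyn were 5.98 ± 0.227, 5.86 ± 0.191, 8.08 ± 0.115 and 8.15 ± 0.0819 in the same order (log2, SD, n = 3). Pdyn was 4.58-fold higher in mutants, averaged over treatments (log2 change 2.20, SE 0.0872, interval 2.01 to 2.39, adjusted p = 8.74e-09). The difference was 4.3-fold after saline (log2 2.10, adjusted p = 1.08e-06) and 4.89-fold after cocaine (log2 2.29, adjusted p = 4.28e-07). Only 0.027% of tested probe sets changed more between the genotypes in either direction. With any 1 array left out, the averaged log2 change stayed between 2.14 and 2.25.

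Tac1, the precursor of substance P and neurokinin A, is the other peptide gene of the direct pathway. The control values were 10.70, 10.86 and 10.75 (saline) and 11.02, 10.86 and 10.87 (cocaine). The mutant values were 11.18, 11.16 and 11.22 (saline) and 11.24, 11.17 and 11.20 (cocaine). The mutant arrays were all higher than the control arrays, with a gap far smaller than that of Pdyn.

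Tac1 was 1.28-fold higher in mutants, averaged over treatments (log2 change 0.35, SE 0.0529, interval 0.24 to 0.47, adjusted p = 0.00102). After saline the difference was 1.33-fold (log2 0.42, SE 0.0748, adjusted p = 0.00802), a call that ended when only the 6 saline arrays were fitted (adjusted p = 0.0594). After cocaine the log2 difference was 0.29 with the same SE and missed the threshold (adjusted p = 0.0528). Pdyn and Tac1 are peptides of the same neurons, and their differences between the genotypes were 2.20 and 0.35 on the log2 scale, with intervals that do not meet.

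Cartpt, the CART precursor, had a different spread in the genotypes. Control signals were 6.47, 5.47 and 6.58 (saline) and 6.52, 6.90 and 5.80 (cocaine). Mutant signals were 7.73, 7.57 and 7.71 (saline) and 7.77, 7.64 and 7.73 (cocaine). One array in each control group lay well under its fellows, while the 6 mutant arrays stood close together.

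The SD of Cartpt was 0.54 over the 6 control arrays and 0.0735 over the 6 mutant arrays, given as a description. Its pooled SD within groups, 0.418, exceeded that of 99.6% of tested probe sets. Cartpt was 2.64-fold higher in mutants, averaged over treatments (log2 change 1.40, SE 0.196, interval 0.98 to 1.83, adjusted p = 0.000569). It was 2.83-fold higher after saline (log2 1.5, adjusted p = 0.00938) and 2.47-fold higher after cocaine (log2 1.3, adjusted p = 0.0179). Both single-treatment calls ended when dim probe sets were kept in the fit (adjusted p = 0.0746 and 0.096). The call after cocaine also ended without the third control cocaine array (log2 1.00, adjusted p = 0.0687), the first mutant cocaine array (adjusted p = 0.0707) or the third (adjusted p = 0.0601).

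Penk, the enkephalin precursor of the indirect pathway, showed the smallest called difference. Saline-treated controls gave 11.70, 11.67 and 11.64, and cocaine-treated controls 11.62, 11.72 and 11.68. Saline-treated mutants gave 11.92, 11.81 and 11.99, and cocaine-treated mutants 11.72, 11.85 and 11.90. The lowest mutant array and the highest control array both round to 11.72, so the genotypes only just failed to overlap.

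Penk was 1.14-fold higher in mutants, averaged over treatments (log2 change 0.19, SE 0.0549, interval 0.07 to 0.31, adjusted p = 0.0431). It was not called after saline alone (log2 0.23, adjusted p = 0.147) or after cocaine alone (log2 0.15, adjusted p = 0.354). The averaged call was lost in 10 of the 12 fits that left out 1 array (all but those without the second mutant saline or the first mutant cocaine array, adjusted p 0.0361 to 0.101 over the 12) and after quantile normalization (adjusted p = 0.0502). Penk and Tac1 are among the steadier transcripts here: 8.54% of tested probe sets had a smaller pooled SD within groups than Penk (0.0713) and 5.62% a smaller one than Tac1 (0.0638).

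Sst and Npy, the precursors of the somatostatin interneurons, were not called between the genotypes. Sst read 9.15, 8.60 and 8.81 in control saline, 8.94, 9.04 and 8.84 in control cocaine, 9.30, 9.19 and 9.25 in mutant saline and 8.94, 9.30 and 8.79 in mutant cocaine. After saline every mutant array was above every control array, by a narrow margin, and after cocaine the genotypes overlapped. The log2 difference was 0.23 over both treatments (SE 0.101, interval 0.01 to 0.45, unadjusted p = 0.0396, adjusted p = 0.184), 0.39 after saline (adjusted p = 0.194) and 0.07 after cocaine (adjusted p = 0.867).

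Npy read 8.78, 8.51 and 8.40 in control saline, 8.70, 8.76 and 8.60 in control cocaine, 8.76, 8.61 and 8.61 in mutant saline and 8.53, 8.79 and 8.30 in mutant cocaine. The 4 groups overlapped throughout. The log2 difference between mutants and controls was −0.024, with an interval of −0.22 to 0.17 (adjusted p = 0.903).

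Nts, the precursor of neurotensin, a peptide that modulates dopamine signalling, was the tested precursor whose mean was lower in mutants under both treatments, without a call. It read 7.61, 7.07 and 7.17 in control saline, 7.31, 7.48 and 7.09 in control cocaine, 7.15, 6.89 and 6.24 in mutant saline and 7.16, 6.76 and 7.27 in mutant cocaine. The third mutant saline array was the lowest of all 12, and the genotypes overlapped under both treatments. The log2 difference was −0.38 (SE 0.154, interval −0.71 to −0.04, unadjusted p = 0.0294, adjusted p = 0.154). Its pooled SD of 0.322 exceeded that of 98.2% of tested probe sets.

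The remaining precursors were dim. Cck, the cholecystokinin precursor, which cortical neurons make in quantity, read 3.38, 3.70 and 3.56 in control saline, 4.09, 4.44 and 3.70 in control cocaine, 3.95, 3.52 and 3.51 in mutant saline and 3.42, 3.84 and 3.26 in mutant cocaine. It passed the floor on 2 arrays, both from cocaine-treated controls. Tac2, the precursor of neurokinin B, read 2.89, 2.52 and 2.67, then 2.70, 2.76 and 2.72 in controls, and 3.02, 3.43 and 3.20, then 3.25, 2.97 and 3.38 in mutants, saline first.

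Tac2 passed the floor on 0 arrays, yet all its mutant arrays lay above all its control arrays. With no filter on dim probe sets, limma gave Tac2 a log2 difference of 0.499 (SE 0.0943, adjusted p = 0.0203) and Cck one of −0.226 (adjusted p = 0.631). Signals this low depend on the background correction.

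**Figure D2:**
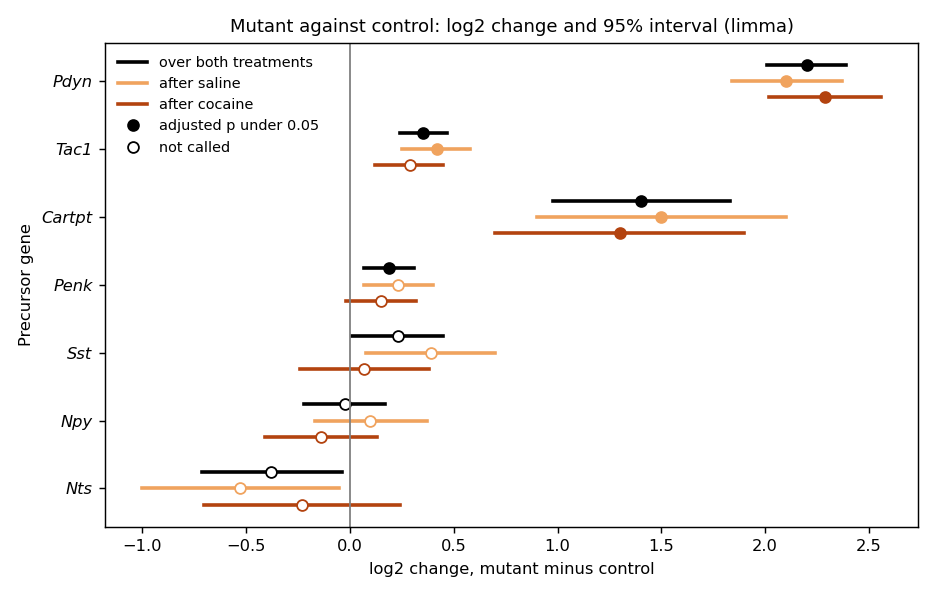
Log2 change of mutant against control (horizontal axis) for the 7 tested precursors, averaged over both treatments and in each treatment, with 95% intervals from limma; filled symbols are called. Pdyn lies near 2.20 and Cartpt near 1.40, Tac1 near 0.35 and Penk near 0.19, and the intervals of Npy include 0.

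By treatment, 3 of the 7 precursors were called between the genotypes after saline (Pdyn, Tac1 and Cartpt), against 2.98% of all tested probe sets. After cocaine 2 were called (Pdyn and Cartpt), against 4.19%. At an unadjusted p under 0.05 the counts were 6 after saline, 3 after cocaine and 6 over both treatments, where 15.6%, 17.2% and 23.4% of all tested probe sets passed. Fewer calls after cocaine do not show that the difference between the genotypes changed with treatment, which is the interaction, called for 0 of the 7.

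Cocaine, 1 hour after the injection, gave 0 called precursors of 7 over both genotypes, in controls and in mutants, where limma called 2.31%, 0.45% and 1.92% of all tested probe sets. None of the 7 had an unadjusted p under 0.05 in any of these comparisons, where 11.5%, 6.34% and 10.7% of all tested probe sets did. With 7 genes, a count of 0 is near these shares and does not set the precursors apart. The response of the mutants less that of the controls (the interaction) was also called for 0 of 7, against 0.0721% of all tested probe sets. At an unadjusted p under 0.05 it passed for 0 of 7, against 4.98%.

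The intervals show how large a response could have gone unseen. For Pdyn the log2 change with cocaine was −0.12 in controls (interval −0.39 to 0.15) and 0.065 in mutants (interval −0.2 to 0.33). For Penk the averaged change was −0.04, with an interval of −0.16 to 0.08. For Cartpt the interval in controls ran from −0.36 to 0.84, so a change of either sign is within the error.

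Tac1 in controls was the precursor nearest to a response. All 3 control cocaine arrays were above the highest control saline array, 1 of them by less than the rounding, and the log2 change was 0.15 (interval −0.01 to 0.31, adjusted p = 0.837). In mutants the Tac1 change was 0.017, and the difference between the genotypes' responses was −0.13 (interval −0.36 to 0.10). The response of Sst in mutants was −0.24 (interval −0.55 to 0.07) and that of Nts 0.31 (interval −0.17 to 0.78). Averaged over both genotypes, Npy moved by 0.00017 (interval −0.19 to 0.19).

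**Figure D3:**
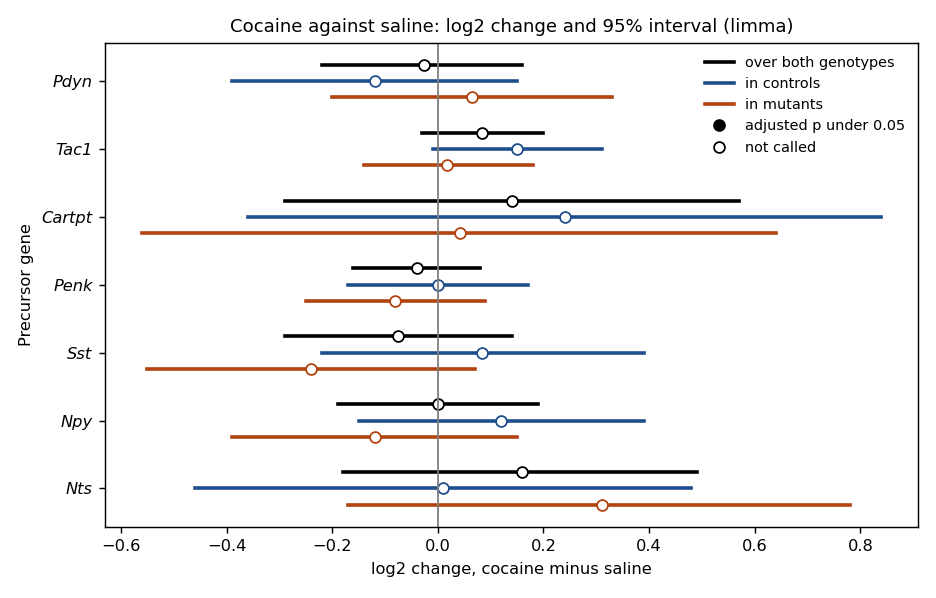
Log2 change of cocaine against saline (horizontal axis) for the 7 tested precursors, averaged over both genotypes, in controls and in mutants, with 95% intervals from limma; open symbols are not called. Every interval includes 0, and those of Cartpt and Nts are the widest.

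The factors that are known to bind CRE and AP-1 sites or to shape striatal neurons were measured on the same arrays. Of 24 such transcription factors 16 were tested, and 6 were higher and 1 lower in mutants over both treatments (median change 0.079, against −0.0088 for all tested probe sets, of which 9.47% were called). Fos, an AP-1 subunit, was higher by 1.27 on the log2 scale (adjusted p = 0.0121). It was called neither after saline alone (adjusted p = 0.0588) nor after cocaine alone (adjusted p = 0.198). Junb, its partner, was higher by 0.80 (adjusted p = 0.00563). Fosb, counted among the 6, read 0.92 (adjusted p = 0.00667). The Fosb means of saline-treated animals lay under the floor, so Fosb passed the filter through the cocaine-treated animals. Its p-value is given as a description. Six3, a homeobox factor of striatal neurons, was higher by 0.80 (SE 0.0684, adjusted p = 1.05e-05). Foxp1, the brightest member not called, read 0.12 (adjusted p = 0.561), and the member that was lower was Egr1 (−0.46), a zinc finger immediate early gene. Egr1 read −0.11 after saline (adjusted p = 0.721) and −0.82 after cocaine (adjusted p = 0.00109), and its interaction was not called (−0.71, adjusted p = 0.32).

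Of the same 16 factors, 7 rose and 0 fell with cocaine averaged over both genotypes, among them Fos (log2 change 3.90), Junb (2.87) and Jun (1.16), where 2.31% of all tested probe sets were called. Fosb, counted among the 7, was called too (2.56), but from saline means of 2.22 and 2.76, under the floor. That value depends on the background correction, and Fosb was tested because of its cocaine arrays, so its call is given as a description. The median change of the 16 was 0.2, against −0.0071 for all tested probe sets.

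Genes that process, store and degrade peptides were measured for 15 of 25 listed members. Over both treatments 4 were higher and 1 lower in mutants, where 9.47% of all tested probe sets were called, with a median of 0.12 against −0.0088. The granule protein Chgb (chromogranin B) read 9.37, 9.37 and 9.36 in control saline, 9.76, 9.85 and 9.78 in control cocaine, 9.68, 9.53 and 9.49 in mutant saline and 10.37, 10.21 and 10.19 in mutant cocaine. These array values are printed because Chgb was singled out after they were seen. Between the genotypes it was called after cocaine (log2 0.47, adjusted p = 0.00404), as were 4.19% of all tested probe sets. After saline it was not called (log2 0.2, adjusted p = 0.236).

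Chgb was higher in mutants by 0.33 (SE 0.0557, adjusted p = 0.00214) and rose with cocaine by 0.56 (adjusted p = 6.5e-05). Scg2 (secretogranin II), another granule protein, was higher in mutants by 0.36 (SE 0.0857, adjusted p = 0.02). Ece1, a peptide-cleaving enzyme, was higher in mutants by 0.29 (adjusted p = 0.0291) and rose with cocaine by 0.32 (adjusted p = 0.038), and with Chgb it made up the 2 members called for cocaine (2.31% of all tested probe sets). Mme, which encodes neprilysin, an enzyme that degrades enkephalin and substance P, was lower in mutants by −0.52 (adjusted p = 0.0355), while its other tested probe set read −0.07. Cpe, the carboxypeptidase that trims peptide ends, was the brightest member not called (0.029, adjusted p = 0.838).

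Receptors for the peptides were mostly dim: 4 of 21 were tested, and 13 never passed the floor. Sstr2, a somatostatin receptor, was the 1 receptor called. Between the genotypes over both treatments, 9.47% of all tested probe sets were called. Sstr2 read 3.28, 3.05 and 3.30 in control saline, 4.08, 3.80 and 3.78 in control cocaine, 3.81, 3.73 and 3.58 in mutant saline and 6.57, 6.20 and 5.94 in mutant cocaine. The mutant cocaine arrays stood apart. Of the other 9 arrays, all but 1 lay under the floor, so Sstr2 passed the filter through the mutant cocaine group, and its differences from the other groups depend on the background correction.

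The log2 difference of Sstr2 between mutants and controls was 0.50 after saline (adjusted p = 0.0951) and 2.35 after cocaine (adjusted p = 1.02e-06), and its change with cocaine was 0.68 for control animals (adjusted p = 0.0726) and 2.53 for mutants (adjusted p = 6.33e-07). The interaction was called (1.85, SE 0.204, adjusted p = 0.00146), as for 0.0721% of all tested probe sets. Sstr2 was tested only because of its mutant cocaine arrays, which also make these values large, so its p-values are given as a description. Ntsr2, the brightest receptor not called, read 0.17 between the genotypes (adjusted p = 0.111). Oprk1, the kappa receptor at which dynorphin acts, was not tested and was singled out after its values were seen. It read 4.20, 3.78 and 3.65 in control saline and 3.91, 3.56 and 4.08 in control cocaine. In mutants it read 2.82, 3.04 and 3.37 (saline) and 3.26, 2.69 and 2.74 (cocaine). These levels lie near or under the floor and depend on the background correction, so no difference between the genotypes is read from them.

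Of 35 other neuropeptide precursors, 24 had a probe set and 1 was tested, Nucb2 (nucleobindin 2), which was not called between the genotypes (−0.084, adjusted p = 0.663) or with cocaine (0.062, adjusted p = 0.886). The other 23 never passed the floor.

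Markers of the cells that could hold the peptides were read beside the precursors, mutants against controls over both treatments unless stated. In that comparison 9.47% of all tested probe sets were called and 4.41% were called higher. Of the other direct-pathway markers, 2 of 3 tested were higher in mutants (Isl1, log2 change 0.24, adjusted p = 0.0201, and Sfxn1, 0.42, adjusted p = 0.0357). The third, Ebf1, had the opposite sign (−0.18, SE 0.0588, adjusted p = 0.082, and −0.17 at its other tested probe set), at levels near the floor. Of the other indirect-pathway markers 0 of 2 were called (Drd2, 0.14, adjusted p = 0.248, and Plxdc1, −0.078, adjusted p = 0.714). Among 11 markers of all medium spiny neurons, 1 was higher (Pde1b, 0.39, adjusted p = 0.00113) and 2 were lower (Rgs9, −0.33, and Rarb, −0.27), and the list's mean lay between 9.67 and 9.90 on all 12 arrays, so markers of the labelled tissue were present throughout.

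Of 3 tested markers of somatostatin interneurons, Satb1 was lower in mutants over both treatments (−0.45, adjusted p = 0.0116), where 9.47% of all tested probe sets were called. Nos1 read 0.17 and Lhx6 0.035. The cortical list was lower in mutants at 1 of its 2 tested members (Lamp5, −0.64, adjusted p = 0.000181), while the other, Nrgn, read 0.17 (adjusted p = 0.323). The mean of these 2 genes, to which Nrgn added in the opposite direction, ranged over 8.73 to 8.90 and 8.67 to 8.87 in control saline and cocaine, and over 8.47 to 8.64 and 8.40 to 8.71 in the mutant groups. The defining cortical genes Neurod6, Neurod2, Tbr1, Cux2 and Fezf2 never passed the floor. Between the genotypes, 9 tested markers of astrocytes, 8 of oligodendrocytes, 8 of microglia and 4 of endothelial cells were read at their brightest probe sets. None was called under either treatment, where 2.98% of all tested probe sets were called after saline and 4.19% after cocaine. Counts of 0 in lists this short are near those shares. After saline, the astrocyte gene Gfap read 0.8 higher in mutants without a call (adjusted p = 0.076). Its other tested probe set read 0.80 over both treatments, where the one used read 0.39. With cocaine, Gfap was lower in mutants (cocaine against saline, −1.02, adjusted p = 0.0303). Its means were 5.05 and 4.03 in mutant saline and cocaine, and 4.26 and 4.06 in control saline and cocaine, near the floor. With cocaine, the other markers of these lists were not called in either genotype. The part these markers have in the precursor differences was not tested.

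Pairs of precursors were compared across arrays. Sst and Npy moved together from array to array. Pearson's r was 0.699 over the 12 arrays (permutation p = 0.0116, adjusted over 3 pairs 0.0348). Spearman's rho was 0.804 (permutation p = 0.00252, adjusted 0.00756). The 3 pairs are those among Sst, Npy and Nts, the tested precursors not called between the genotypes in these same data. This permutation shuffled arrays across the 4 groups, so its p does not separate group differences from array-to-array spread. Without the 2 arrays farthest from the median of Sst, r of Sst and Npy was 0.695. Within the 6 control arrays r was 0.804 (exact permutation p = 0.0569, adjusted over 21 pairs 0.315), and within the 6 mutant arrays 0.935 (exact permutation p = 0.00278, adjusted 0.0583). The relation had the same sign in both genotypes, and neither within-genotype value held after adjustment. With the group means taken out, r of Sst and Npy was 0.877. On that measure Sst had 0.951 with Mif and 0.942 with Creb3, genes picked for their high r with Sst over the same arrays. A value this high was therefore not particular to Npy.

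Pairs that include a called precursor fall into 2 clusters by genotype, so no pooled value is given. Pdyn and Tac1, both of the direct pathway, had r = −0.803 within the 6 controls (exact permutation p = 0.0486, adjusted 0.315) and 0.0817 within the 6 mutants. Pdyn and Cartpt had 0.597 and 0.0204. Sst and Nts had 0.93 within controls (exact permutation p = 0.00694, adjusted 0.146) and −0.575 within mutants. None of the 21 pairs passed the adjustment within either genotype.

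**Figure D4:**
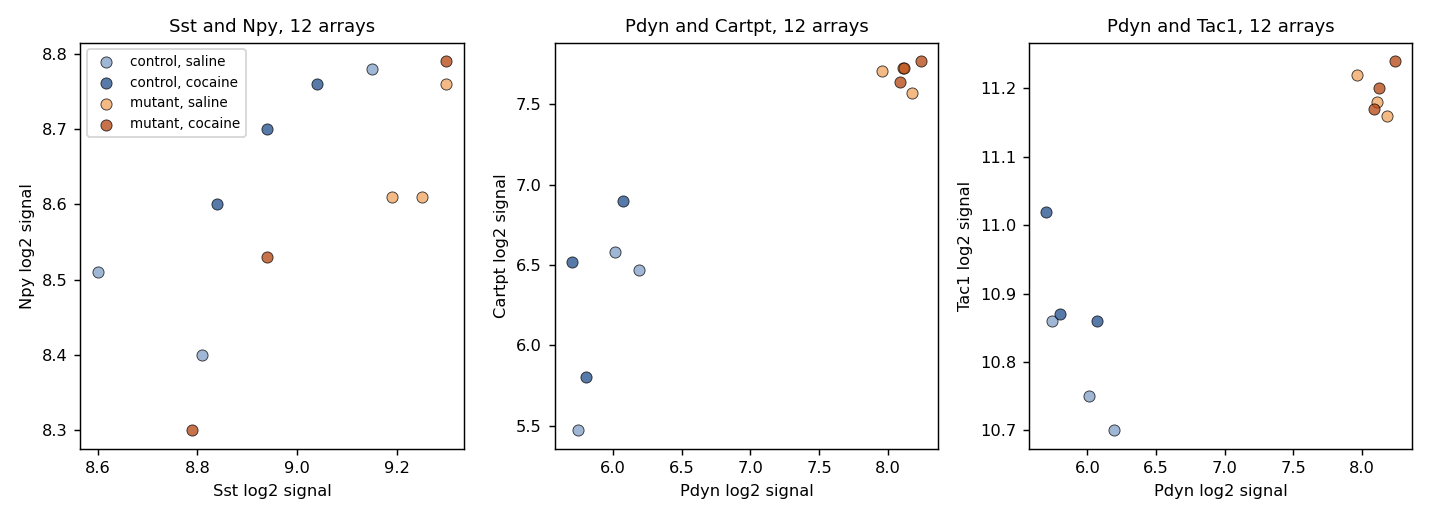
Log2 signals of Npy against Sst, Cartpt against Pdyn and Tac1 against Pdyn on the 12 arrays, with marker and colour for the group. Sst and Npy rise together from array to array (r = 0.699 over the 12 arrays, and 0.877 with the group means taken out), not by group mean. The Pdyn pairs form 2 clusters by genotype.

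The genes whose signal pattern was most like that of a precursor over the 12 arrays were ranked by Pearson's r, as a description, and the arrays share their groups. For Pdyn they were Rab3b (0.974), Gpx6 (0.972) and Six3 (0.969), and within groups, after the group means were taken out, these values were 0.332, 0.347 and 0.348. For Cartpt they were Mpdu1 (0.931, and 0.647 within groups), Rab3b (0.924 and 0.595) and St8sia5 (0.92 and 0.501). For Tac1 they were Msmo1 (0.969, and 0.552 within groups), Nedd4l (0.952 and 0.575) and Slc3a2 (0.943 and 0.357). For Penk they were Syp (0.958, and 0.866 within groups), Ppp2r2a (0.932 and 0.802) and Csdc2 (0.926 and 0.737).

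For the precursors without a called difference, the likeness within groups is no separate finding. Their partners were picked for the highest r over the same arrays. As these precursors had no called group difference, much of the spread that the choice matched lay within groups. The choice itself thus favoured a high r there, and no chance level was computed for it. Partners of Penk were picked in the same way. Sst was most like Mif (0.939, and 0.951 within groups), Creb3 (0.896 and 0.942) and Trappc1 (0.888 and 0.803). Npy was most like Zcchc17 (0.874), B9d2 (0.832) and Pdrg1 (0.821), and Nts most like Olfm3 (0.913), Gspt2 (0.908) and Tro (0.882). Rab3b, which encodes a vesicle GTPase, was the 1 gene listed under 2 precursors, Pdyn and Cartpt.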

How the data were processed

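The 12 arrays (Affymetrix mouse expression, 3 for each of 4 groups) were deposited as log2 signals, which the authors made, as the submitters' processing notes say, with GCRMA in R 2.4.1. No source used here gives the log base, which was taken as 2 from the range of the values. GCRMA compresses dim signals and fixes a common level per array. The number of arrays limits the precision.

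From the deposited log2 signals, 4 group means were fitted in limma 3.58.1 (R 4.3.3) with empirical Bayes moderation, and p-values were adjusted (Benjamini-Hochberg) over the 11102 probe sets above a signal of 4 in at least 3 arrays. Intervals are limma's. Permutation tests were two-sided (NumPy 2.4.6). The steps were tested on simulated data. Probe sets were named through the platform annotation, and promoters come from RefSeq. The members and lists were chosen with earlier results of these data known. Named list genes are up to 4 called members with the largest change and the brightest one not called; others are spelled out where a count is small. For likeness, the 3 genes with the highest r are named. Alternatives were other filters, normalizations, weights, priors, a replicate block and each array left out.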

Additional observations from a re-analysis of the deposited data

How the results depend on the processing

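In the comparisons of the genotypes and of the treatments, 49 precursor results were recomputed in the alternative fits, which gave 959 values. Most of the 49 were not called in the main fit. Of the 959 values, 0 reversed a call, 900 kept the direction and the side of the threshold, 18 lost a call and 8 gained one. The remaining 33 changed sign with neither value called. Over the fits that left out 1 array, the count of called precursors was 3 to 4 over both treatments, 3 to 3 after saline and 1 to 3 after cocaine, and 0 to 0 for cocaine and for the interaction. With no filter on dim probe sets, 5 precursors were called over both treatments, the fifth being Tac2. After cocaine 3 were called, Tac1 included, with array weights, an intensity trend, a stricter filter, quantile normalization or a common median. With the replicate block, 3 precursors were called over both treatments and Penk was not (adjusted p = 0.073), and 907 probe sets were called in all against 1051. No source used here says that the shared numbers pair the samples. Of 18 same-number correlations, 1 exceeded 0.1 (range −0.145 to 0.116). They use deviations from means of 3 arrays, and cannot show whether a litter or day was shared. Over all probe sets, array weights gave 708 calls after cocaine against 465, and 88 against 50 for cocaine in controls. A fit of only the arrays compared gave 152 after saline against 331, and no filter gave 5 interaction calls against 8. The cause of these shifts was not tested. Signals near 4 limit Cck, Tac2, Oprk1 and Sstr2.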
